A study of Mus musculus with 9 samples.

Results

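Hippocampal RNA of the 3xTg line, a mouse model of Alzheimer's disease, was compared with that of wild type (WT) mice over all 9 libraries of the study, 6 of the line against 3 of WT. The members were chosen by their labels alone: every library labelled 3xTg entered, whether or not the animals had received the compound LP-10d, so that the comparison asks which differences of the line were present with and without the compound. All 9 libraries came from female mice aged 9 months. The 3 WT libraries were labelled C57BL/6J and given blank solvent by mouth 4 times per week (WT vehicle). Of the 6 libraries of the line, 3 had the same blank solvent (3xTg vehicle) and 3 (3xTg LP-10d) were dosed orally with LP-10d, 10 mg/kg per dose and 4 doses a week over 1 month. There was no WT group with LP-10d.

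Every library of the line was labelled with Swedish-mutant APP and tau P301L, among its changes. The labels name no animal for any library, so whether the replicates are separate animals is not given. A p-value here measures only the spread between replicates, which may include technical differences. Pairs of replicates within a group differed by a chi-square of 4.99 to 51.1 per degree of freedom, more than counting noise alone gives. What that spread came from was not tested. WT and the line differ at once in their engineered alleles, breeding and any strain segments that came with them, and these cannot be told apart.

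In the 3xTg line, human APP and human tau are expressed in neurons from cassettes built on the promoter of Thy1, a neuronal surface glycoprotein. APP is cut by beta-secretase and then by gamma-secretase to give amyloid-beta peptides, and mutant tau forms aggregates in neurons. Plaques and tangles form with age in hippocampus and cortex, and synaptic loss, microglial activation and changes in memory are the features for which the line is used. The transgenes are human, whereas the genes below are those of the mouse annotation.

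The values were counts per gene, and total counts per library ran from 16582086 to 19170969, without separation of the groups. Levels below are CPM, the count of a gene scaled to a common library size after normalization, and they compare libraries and not genes. Markers of the labelled tissue were present in every library: dentate gyrus genes summed to 463.9 to 847 CPM and CA1 genes to 631 to 975.9 CPM. There was no other tissue to set these sums against. Some libraries stood apart. A set of 15 striatal and thalamic marker genes summed to 1485 CPM in 3xTg vehicle replicate 2 and to between 225.3 and 467.9 in the other 8. A set of 14 choroid plexus markers ranged from 216.1 to 6393 CPM over the libraries, with all 3 groups overlapping. Mitochondrially encoded genes took 5.04% of counts in WT vehicle replicate 3 and 2.28% to 2.86% in the others. The level of a bulk sample does not separate fewer cells of a type from less RNA per cell, and this holds for every result below.

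Of the line libraries, 3xTg LP-10d replicate 2 most often failed to lie with the rest of its line against WT. At 1705 genes the other 5 libraries of the line all lay above or all below the 3 WT libraries, and at 29.3% of these replicate 2 did not join them. The same share was 14.6% to 21.8% for each of the other 5 libraries of the line. Replicate 2 lay within the WT range at 442 of its 1705 genes and past WT on the other side at 57. It also had the smallest total count of the 9 libraries, 16582086. At a few genes with all-or-none differences this library had the WT level, as described below, and results that rest on it are given with and without it.

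No gene passed the test of the line against WT. In edgeR's quasi-likelihood fit over 17396 genes, 0 were called higher and 0 lower (0% each), and the smallest Benjamini-Hochberg adjusted p was 0.109. An unadjusted p under 0.05 was reached by 2748 genes (15.8%), of which 1293 were higher (7.43%) and 1455 lower (8.36%) in the line. limma-voom likewise called 0, with a smallest adjusted p of 0.114. DESeq2, run as an alternative, called 341 of 15680 genes with an adjusted p (2.17%), 202 higher (1.29%) and 139 lower (0.886%). The tools thus gave different answers on the same counts, and every gene named below as called was called by DESeq2 alone unless stated otherwise.

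A second description used no model. All 6 libraries of the line lay above all 3 WT libraries at 667 genes (3.83%) and below them at 539 (3.1%), together 1206 genes (6.93%). Such genes are called separated below, and every count of separated genes in a list is to be set against these shares. Of the 341 genes called by DESeq2, 301 were separated, 178 higher and 123 lower. The mean was higher in the line at 50.4% of genes, and the median log2 fold change over all genes was 0.00, so neither direction prevailed.

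The 5 genes at the head of the higher side were Vwa5b2, Camk2n2, Rprm, Mid1 and Sec14l3. Vwa5b2 (ENSMUSG00000046613, mm10 chr16:20589471-20605377, plus strand), which encodes a protein with a von Willebrand factor A domain, stood at 54.1, 72.4 and 56.7 CPM in the 3 WT libraries. The 6 libraries of the line ran from 92.7 through a median of 100.5 to 121 CPM. Every library of the line was above every WT library, and the log2 fold change was 0.74 ± 0.11 (SE; edgeR adjusted p = 0.109; DESeq2 adjusted p = 3.293e-06). Against WT it was 0.82 in the vehicle arm and 0.65 in the LP-10d arm, which share the WT libraries.

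Camk2n2, which encodes an inhibitor of the calcium- and calmodulin-dependent kinase CaMKII, lies on the same chromosome (chr16:20619215-20621287, minus strand), close to Vwa5b2. It was at 64.7, 73.2 and 59.2 CPM in WT and at 88.6 to 97.6 CPM in the line, with a median of 92.0. The ranges did not overlap, and the log2 fold change was 0.49 ± 0.07 (SE; edgeR adjusted p = 0.109; DESeq2 adjusted p = 3.293e-06). Rprm, encoding reprimo, a p53 target that arrests the cell cycle in G2, was at 21.7, 25.3 and 19.6 CPM in WT. In the line it ran from 31.2 through 36.0 to 38.8 CPM, again with no overlap and with a log2 fold change of 0.68 ± 0.10 (SE; edgeR adjusted p = 0.109).

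Mid1, an X-linked gene for a microtubule-binding ubiquitin ligase (chrX:169685199-170005736, plus strand), had the largest difference of these 5. WT libraries were at 2.51, 3.14 and 3.56 CPM. The vehicle arm of the line was at 32.7, 32.8 and 14.8 CPM and the LP-10d arm at 40.1, 8.71 and 35.4 CPM. The line was higher throughout but split: 4 libraries were above 32 CPM, and 3xTg vehicle replicate 3 and 3xTg LP-10d replicate 2 were well under them. The log2 fold change was 3.15 ± 0.49 (SE; edgeR adjusted p = 0.109; DESeq2 adjusted p = 2.037e-06). Without LP-10d replicate 2 it was 3.34 ± 0.33 (SE), and edgeR called it (adjusted p = 0.00700).

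Sec14l3 encodes a lipid-binding protein of the Sec14 family. It was low in WT, at 0.457, 0.996 and 0.334 CPM, and ran from 1.82 through 2.68 to 3.84 CPM in the line. The log2 fold change was 2.19 ± 0.35 (SE; edgeR adjusted p = 0.110), and both arms had similar values, 2.23 and 2.16.

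The lower side was headed by Tent5a, Bcl6b, Sowaha, Doc2b and Cdk5rap2. Tent5a encodes a poly(A) polymerase and stood at 7.20, 8.18 and 9.40 CPM in WT. In the line it ran from 3.90 through 4.24 to 5.05 CPM, below every WT library. Its log2 fold change was -0.91 ± 0.13 (SE; edgeR adjusted p = 0.109; DESeq2 adjusted p = 9.78e-06). Bcl6b, a transcriptional repressor of the BCL6 family that is known in endothelium and lymphocytes, was at 3.08, 4.04 and 4.23 CPM in WT and at 1.63 to 2.02 CPM in the line (log2 fold change -1.06 ± 0.15 SE, edgeR adjusted p = 0.109).

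The other genes of the lower side had smaller differences over narrow ranges. Sowaha, an ankyrin repeat protein gene, was at 169, 154 and 159 CPM in WT and at 116 to 133 CPM in the line. Doc2b, a calcium sensor for spontaneous transmitter release, was at 114, 112 and 121 CPM in WT and at 80.4 to 92.9 CPM in the line. Cdk5rap2, a centrosome protein gene, was at 37.1, 39.1 and 39.7 CPM in WT and at 27.1 to 31.3 CPM in the line. None of the 3 overlapped, and their log2 fold changes were -0.40 ± 0.07, -0.37 ± 0.06 and -0.37 ± 0.07 (SE), with edgeR adjusted p of 0.110, 0.115 and 0.117.

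**Figure D1:**
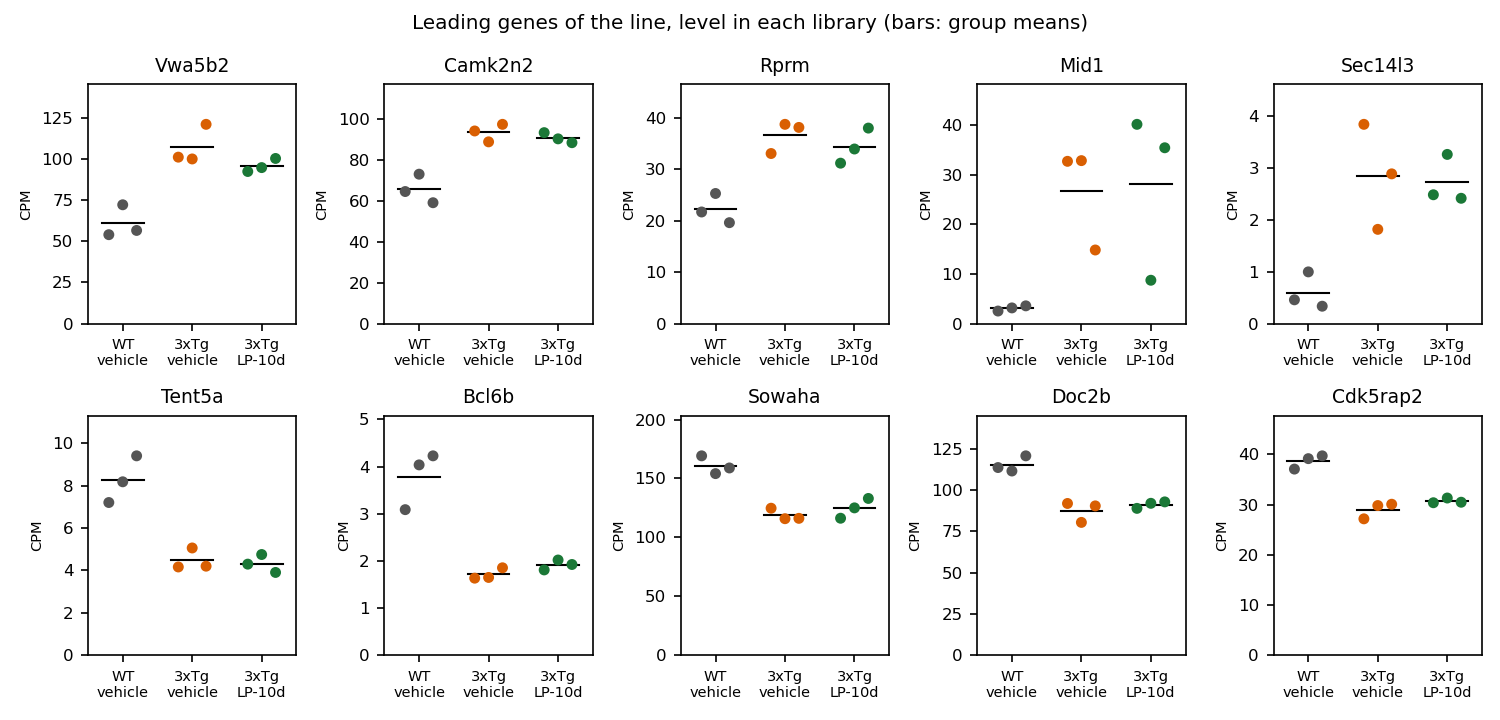
CPM (vertical axis, from 0) of the 5 leading higher and 5 leading lower genes in each library, in columns for WT vehicle, 3xTg vehicle and 3xTg LP-10d; points are libraries and bars are group means. In every panel the 6 line libraries lie on one side of the 3 WT libraries, and Mid1 spreads from 8.71 to 40.1 CPM within the line.

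Few genes showed a wide empty interval between WT and the line. Among 15457 tested genes with a mean of at least 1 CPM, 8 had a lowest line library at least 1.5 times the highest WT library, and 1 had a highest line library at least 1.5 times under the lowest WT library. The 8 were G530011O06Rik, Mid1, Ovol2, Sec14l3, Has1, Tcap, Adam33 and Nxph4, and the 1 was Bcl6b. Those not described above were named after their values were seen. The widest interval was that of G530011O06Rik, at 3.11-fold, followed by Mid1 at 2.45-fold and Ovol2, a zinc finger transcription factor gene, at 2-fold. Ovol2 was at 0.457, 0.891 and 0.556 CPM in WT and ran from 1.78 to 5.01 CPM in the line. Has1, which encodes a hyaluronan synthase, was at 1.03, 1.15 and 1.06 CPM in WT and at 1.98 to 2.79 CPM in the line. Has1 was above WT in every library of the line, with a log2 fold change of 1.12 ± 0.18 (SE; edgeR adjusted p = 0.110).

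G530011O06Rik is a long noncoding RNA gene that lies within Mid1 on the other strand (chrX:169975043-169978917, minus strand). Its raw counts were 5, 3 and 3 in WT, 43, 26 and 19 in the vehicle arm and 48, 15 and 39 in the LP-10d arm, so the same 2 line libraries were lowest as for Mid1. Whether the counting used strand was not given in the sources used here, and without strand the reads of both genes cannot be told apart. A 309-base transcript of Gm21860, annotated on the Y chromosome (chrY:90752427-90755467), is contained base for base in the G530011O06Rik transcript of 2380 bases. Gm21860 went the other way. It had 15, 15 and 24 counts in WT, 0, 1 and 1 in the vehicle arm and 0, 14 and 1 in the LP-10d arm, although all animals were labelled female. Its counts are therefore uncertain as to the gene they came from.

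Some genes had all-or-none differences that LP-10d replicate 2 did not share. The clearest was Gm8210 (chr1:43189156-43189638), a copy of Rpl29, the gene of a protein of the large ribosomal subunit. Gm8210 had 1, 2 and 2 counts in WT, 124, 83 and 124 in the vehicle arm and 116, 1 and 142 in the LP-10d arm. Rpl29 was at 60.3, 65.4 and 65.4 CPM in WT, at 36.4, 44.8 and 37.1 CPM in the vehicle arm and at 34.7, 61.4 and 33.5 CPM in the LP-10d arm. At both genes 5 libraries of the line were far from WT and replicate 2 had the WT value. The Gm8210 transcript, of 483 bases, was set against the longest reading frame of Rpl29 transcripts that has this same length. They differ at 3 positions, counted from 1 at the start codon of Rpl29: C72A, C300T and T423C, with the base of Rpl29 first. The stretches around the 3 positions are shown because a read over any other part of these 483 bases matches both genes equally; each runs 20 bases to either side, and the capital marks the differing base.
Rpl29 52 to 92: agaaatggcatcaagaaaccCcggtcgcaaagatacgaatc
Gm8210 52 to 92: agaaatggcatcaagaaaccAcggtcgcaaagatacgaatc
Rpl29 280 to 320: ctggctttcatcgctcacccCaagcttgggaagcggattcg
Gm8210 280 to 320: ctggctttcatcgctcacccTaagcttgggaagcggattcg
Rpl29 403 to 443: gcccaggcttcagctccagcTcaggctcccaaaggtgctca
Gm8210 403 to 443: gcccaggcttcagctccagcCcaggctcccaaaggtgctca

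The values of both genes are uncertain, since counting could have split reads between them. Gm13841 and Gm10709, copies of Rpl29 with 99.38% and 98.55% of its coding bases, were also tested, and neither was separated. Gm13841 was at 10.00, 9.38 and 6.67 CPM in WT and at 6.26 to 8.66 CPM in the line. With all 9 libraries the edgeR adjusted p was 0.117 for Gm8210 and 0.185 for Rpl29. Without LP-10d replicate 2, edgeR called 7 genes: Gm8210 (adjusted p = 2.3e-05), Mid1, Wdfy1 and Gm14267 higher, and Gm21860, Gm35189 and Rpl29 lower. Apart from Mid1 these were named after their values were seen. Wdfy1, a gene for an endosomal adaptor of Toll-like receptor signalling, was at 18.4, 20.1 and 12.01 CPM in WT. It was at 38.8, 43.2 and 41.0 CPM in the vehicle arm and at 40.2, 23.6 and 41.9 CPM in the LP-10d arm. Wdfy1 was thus higher in all 6 libraries, with replicate 2 the nearest to WT, and without that library its log2 fold change was 1.28 ± 0.15 (SE; edgeR adjusted p = 0.0210). What set replicate 2 apart was not tested.

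**Figure D2:**
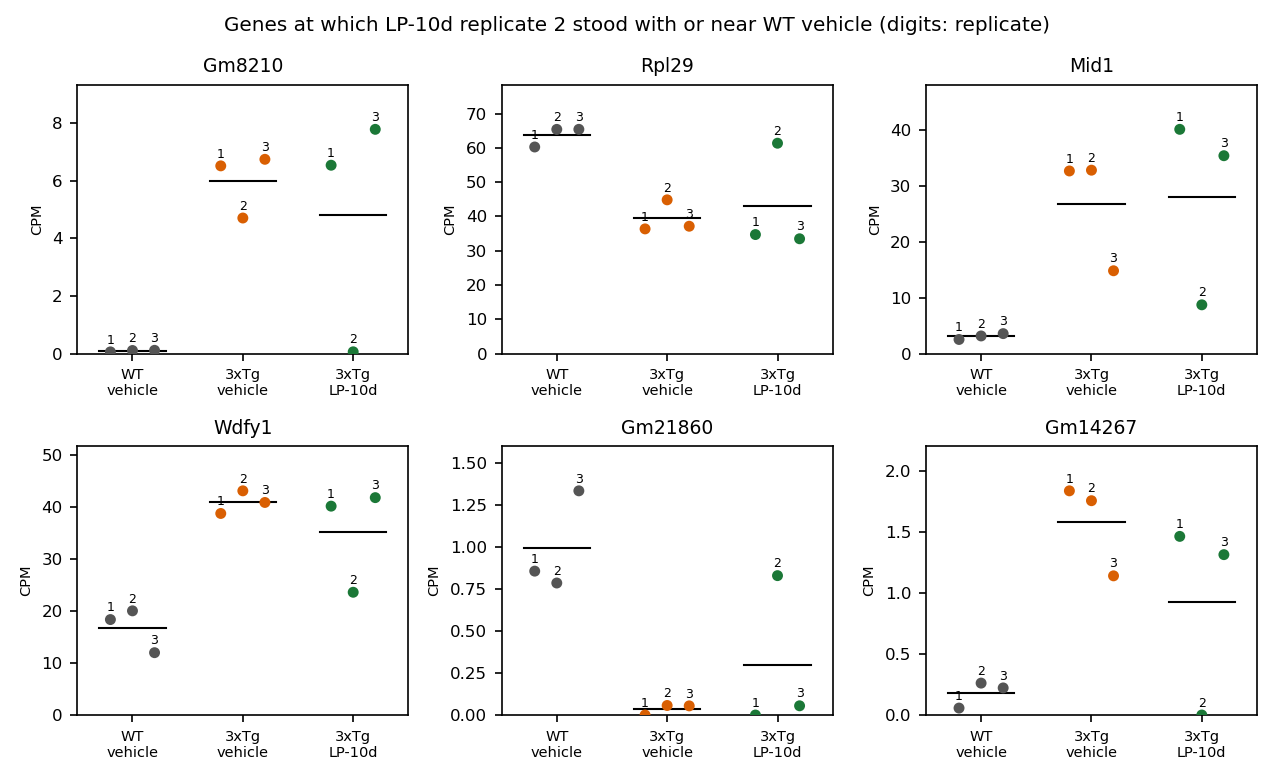
CPM (vertical axis, from 0) of 6 genes in each library by group, with the replicate number at each point and bars at group means. At Gm8210, Rpl29, Gm21860 and Gm14267 the point of LP-10d replicate 2 lies with the WT points, and at Mid1 and Wdfy1 it is the lowest of the line but above WT.

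The mouse genes that the transgenes concern did not separate the groups. App was at 1907, 1613 and 2195 CPM in WT and at 1517 to 1721 CPM in the line (log2 fold change -0.19 ± 0.10 SE). Mapt, the gene of tau, was at 661, 608 and 653 CPM in WT and at 605 to 637 CPM in the line (-0.04 ± 0.06 SE). Line and WT overlapped at both. The sign for Mapt turned with the scaling: it was 0.01 with library size alone and on FPKM. Thy1, whose promoter drives the transgenes, was at 647, 517 and 1139 CPM in WT and at 656 to 1530 CPM in the line (0.50 ± 0.27 SE). The edgeR adjusted p of these 3 genes ran from 0.342 for App to 0.749 for Mapt. Human transcripts were not analysed here, so these values do not check the labels of the line.

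Genes known to differ between C57BL/6 substrains and other strains gave no separation either. Nnt, an enzyme gene of the mitochondrial inner membrane that is deleted in part in C57BL/6J, had 0 to 5 counts in WT and 3 to 6 in the line. Ifi202b had 0 counts in every library but LP-10d replicate 2, which had 1, and neither gene was tested. Gabra2, a GABA-A receptor subunit gene, was at 37.2 to 56.7 CPM in WT and at 40.5 to 62.6 CPM in the line. Disc1 was at 3.17 to 4.46 and at 3.57 to 4.43 CPM. The values of WT and the line overlapped at Gabra2 and Disc1.

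Interferon response genes were lower in the line almost throughout. Interferons signal through a receptor to a transcription factor complex with IRF9, which binds a promoter element and switches on antiviral genes. Of 33 tested genes of this list 31 had a lower mean in the line and 2 a higher one, where over all genes 50.4% were higher, and the median log2 fold change was -0.45. Separation was seen at 6, all lower, against 3.1% of all genes. DESeq2 called 4 lower and 0 higher, where it called 0.886% of all genes lower and 1.29% higher. edgeR called 0, with 13 at an unadjusted p under 0.05, all lower, against 8.36% of all genes. The median was -0.42 with vehicle and -0.49 with LP-10d, values that share the 3 WT libraries, and over the alternatives tried the median ran from -0.58 to -0.17.

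Irf9 itself was at 19.1, 20.8 and 21.1 CPM in WT. It was at 13.5, 15.5 and 15.6 CPM in the vehicle arm and at 11.4, 16.0 and 13.8 CPM in the LP-10d arm. The 3 WT libraries were close to each other and above all 6 of the line, with a log2 fold change of -0.51 ± 0.11 (SE; edgeR adjusted p = 0.135; DESeq2 adjusted p = 0.00495). Ddx58, encoding the RNA sensor RIG-I, was at 7.20, 8.28 and 7.23 CPM in WT and at 4.58 to 5.93 CPM in the line (-0.53 ± 0.12 SE, DESeq2 adjusted p = 0.0216). Sp100, a nuclear body component, was at 7.03, 4.61 and 6.84 CPM in WT and at 2.52 to 4.39 CPM in the line (-0.90 ± 0.18 SE, DESeq2 adjusted p = 0.00435).

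Not every interferon gene was separated. Gbp3, a guanylate-binding protein gene, was at 8.91, 9.33 and 6.12 CPM in WT and at 3.84 to 6.15 CPM in the line, so that 1 line library passed the lowest WT library. As a summary, the list was scored in each library by the mean of its members' log2 CPM, each centred over the 9 libraries. The interferon score was 0.485, 0.417 and -0.111 in WT. It ran from -0.176 to -0.0726 with vehicle and from -0.319 to 0.0791 with LP-10d. WT vehicle replicates 1 and 2 were above the line and WT vehicle replicate 3 lay among it, so the list as a whole did not separate the groups.

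Of the 33 genes, 24 had a promoter window in RefSeq (GRCm38.p6), and in the 250 bases before the start 11 of them (45.8%) held GAAA, then any 2 bases, then GAAA again, on either strand, with overlapping matches counted. The same motif was found at 374 of 12371 tested genes with a window (3.02%) and at 936 of 27025 genes in all (3.46%). A match describes these letters and not a bound site. None of the 6 separated genes of the list was among the 11. Genes of the list without a window could not be examined, and which of the 6 had a window is not given here. The 3 members shown next all overlapped WT. The stretches of 3 members are shown because they carry the element by which such genes are known as a group, with the matched bases and their complement in capitals and the strand of the gene given.
Gbp3 chr3:142559979-142560034 plus strand: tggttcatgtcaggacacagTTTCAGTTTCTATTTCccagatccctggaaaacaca
Isg15 chr4:156200855-156200916 minus strand: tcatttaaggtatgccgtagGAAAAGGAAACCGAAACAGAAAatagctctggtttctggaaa
Oas1a chr5:120907526-120907565 minus strand: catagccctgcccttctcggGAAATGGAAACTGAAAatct

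The levels of Isg15, a ubiquitin-like modifier, and Oas1a, an oligoadenylate synthetase, were low and overlapped WT. Isg15 was at 4.34, 2.78 and 1.502 CPM in WT and at 1.52 to 2.49 CPM in the line. Oas1a was at 2.17, 1.73 and 0.612 CPM in WT and at 0.593 to 1.19 CPM in the line. At both, WT vehicle replicate 3 was the low library of its group, as in the score. Ifi44 and Oasl2, named after their values were seen, were separated: Oasl2 was at 9.77, 7.23 and 6.34 CPM in WT and at 3.68 to 6.05 CPM in the line. Helz2, a helicase coactivator gene outside the list and also named afterwards, was at 16.2, 16.8 and 15.3 CPM in WT and at 9.20 to 13 CPM in the line (DESeq2 adjusted p = 0.00057).

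Pyhin genes, interferon-inducible sensors of nucleic acids that sit in a cluster of near-identical copies, had 3 of 17 members tested and all 3 were lower. Ifi203 was at 4.23, 3.35 and 5.84 CPM in WT and at 1.19 to 2.88 CPM in the line (-1.12 ± 0.25 SE, DESeq2 adjusted p = 0.0119). Aim2 and Mndal overlapped WT, at log2 fold changes of -0.68 ± 0.22 and -0.85 ± 0.30 (SE). Reads could be split among these copies, so the values are uncertain. MHC class I and II genes, which present peptides to T cells, had 18 of 22 means below WT and a median of -0.23. Of them 1 gene was separated, lower, against 3.1% of all genes. Leaving out WT vehicle replicate 2 made the median -0.03, and leaving out replicate 3 made it -0.47. That gene was B2m, the invariant chain of class I, at 59.5, 71.6 and 92.3 CPM in WT and 48.9 to 57.9 CPM in the line (-0.50 ± 0.12 SE, DESeq2 adjusted p = 0.0149).

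**Figure D3:**
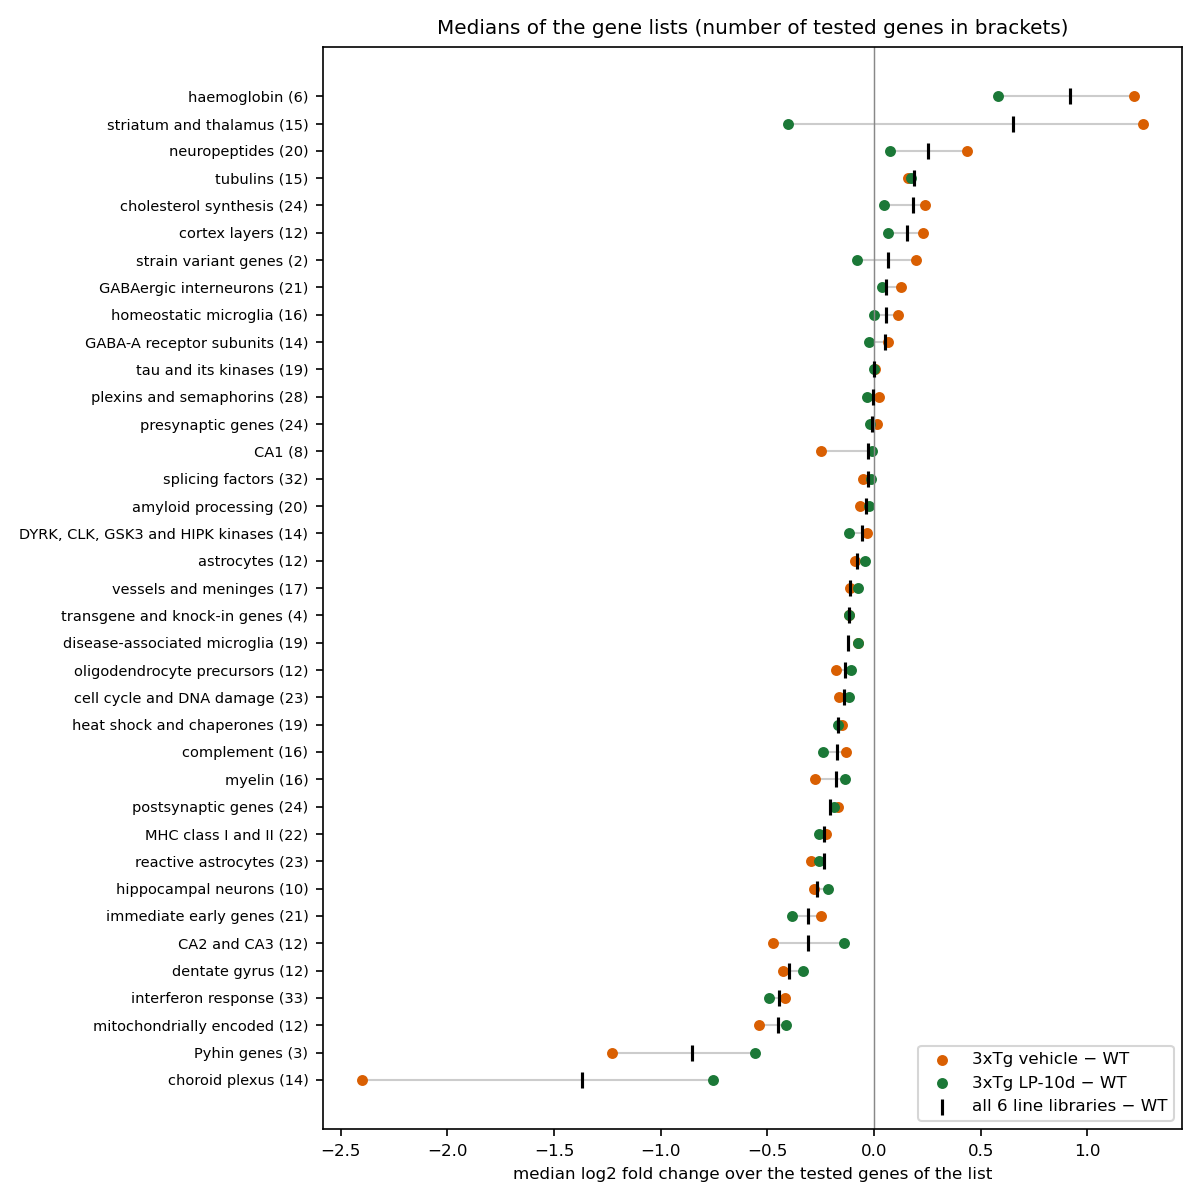
Median log2 fold change (horizontal axis) over the tested genes of each of 37 gene lists, for the vehicle arm, the LP-10d arm and all 6 line libraries against WT; the number of tested genes stands in brackets. The interferon list lies near -0.45 in both arms, and the choroid plexus and striatal lists have the most distant arms.

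Microglial genes did not move as 1 block. The genes of disease-associated microglia, the state described around amyloid plaques, were lower in 13 of 19, and 4 were separated, all lower, against 3.1% of all genes. The 4 were Csf1, B2m, Gpnmb and Axl, and B2m is the same gene that was separated in the MHC list. Csf1, the ligand of the receptor on which microglia depend, was at 45.5, 44.4 and 50.1 CPM in WT and at 33.7 to 38.9 CPM in the line (-0.33 ± 0.07 SE, DESeq2 adjusted p = 0.00407). Apoe, a lipid carrier, was at 1786, 2017 and 2075 CPM in WT and at 1541 to 1791 CPM in the line, overlapping by 1 library (-0.26 ± 0.08 SE, DESeq2 adjusted p = 0.0450). Gpnmb was at 8.97, 8.91 and 12.6 CPM in WT and at 4.94 to 8.60 CPM in the line. The median of the list was -0.12 with all libraries, 0.10 with WT vehicle replicate 2 left out and -0.20 with replicate 3 left out. Homeostatic microglial genes were higher in 10 of 16, with a median of 0.06, and the 1 separated gene was Selplg, which was lower, at 41.3 to 46.5 CPM against 47.6 to 66.1 CPM in WT. Complement genes had 0 of 16 separated.

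Reactive astrocyte genes were below WT in 17 of 23 means, at a median of -0.24, and 2 were separated, both lower, against 3.1% of all genes. Cd109 was at 7.997, 6.97 and 7.23 CPM in WT and at 2.38 to 5.16 CPM in the line (-0.89 ± 0.18 SE, DESeq2 adjusted p = 0.00402). Osmr, a receptor subunit for oncostatin M, was at 6.86, 6.13 and 10.5 CPM in WT and at 4.10 to 6.04 CPM in the line. Markers of astrocytes in general had 5 of 12 higher and 0 separated. Of oligodendrocyte precursor markers 11 of 12 were lower, and Olig1, a transcription factor of the lineage, was separated at 125 to 151 CPM against 154 to 167 CPM in WT. The score of that list was also below WT in all 6 line libraries, by a narrow margin of 0.0634 against 0.0651. Myelin genes were lower in 12 of 16 with 0 separated.

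Tubulin genes encode the subunits of microtubules. Of 15 tested, 11 had a higher mean in the line and 4 a lower one, and 4 were separated, all higher, against 3.83% of all genes. The median was 0.19 (0.12 without WT vehicle replicate 3). DESeq2 called 2, both higher, against 1.29% of all genes, and edgeR called 0. Tubb3, the neuronal class III beta-tubulin, was at 300.1, 286 and 269 CPM in WT, at 436, 436 and 434 CPM in the vehicle arm and at 367, 354 and 419.8 CPM in the LP-10d arm. The 3 vehicle libraries were nearly equal and above all others, and the LP-10d libraries lay between them and WT. The log2 fold change of the line was 0.52 ± 0.09 (SE; edgeR adjusted p = 0.110; DESeq2 adjusted p = 2.853e-05). Tubb5 was at 442, 410.5 and 420.5 CPM in WT and at 464 to 518 CPM in the line (0.21 ± 0.06 SE, DESeq2 adjusted p = 0.0119).

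Tubb4b and Tuba1b were separated by less. Tuba1b was at 171, 174 and 75.3 CPM in WT and at 179 to 199.9 CPM in the line, so its log2 fold change of 0.42 rests largely on WT vehicle replicate 3. The tubulin score was -0.0492, -0.141 and -0.117 in WT and 0.00962 to 0.128 in the line, with no overlap. Stmn1, which encodes the tubulin-binding protein stathmin and is in no list, was at 99.3, 125 and 103 CPM in WT and at 138 to 191 CPM in the line (0.57 ± 0.11 SE, DESeq2 adjusted p = 0.000615). It was named after its values were seen.

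Presynaptic genes were evenly divided, 12 of 24 higher, with a median of -0.01. Of them 3 were separated, all higher, against 3.83% of all genes. Stx1a, the syntaxin of synaptic vesicle fusion, was at 151, 144 and 114 CPM in WT and at 171 to 218 CPM in the line (0.50 ± 0.11 SE, DESeq2 adjusted p = 0.00456). Syt4 was at 37.6 to 47.6 CPM in WT and at 47.9 to 60.05 CPM in the line, and Sv2a at 388 to 579 against 586 to 644 CPM. Syt2, a fast calcium sensor of release, overlapped WT at 1 library, LP-10d replicate 2.

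Postsynaptic genes had 18 of 24 means below WT and a median of -0.21, which was -0.08 without WT vehicle replicate 3. Gria1, a subunit of AMPA glutamate receptors, was at 1349, 1037 and 1337 CPM in WT and ran from 739.8 through 953 to 1024 CPM in the line (-0.42 ± 0.12 SE, DESeq2 adjusted p = 0.0414). Camk2b, a CaMKII subunit gene, was at 1951, 1906 and 2121 CPM in WT and at 1523 to 1854 CPM in the line, and Camk2a was at 4601 to 6752 against 4021 to 4702 CPM. Gria1 and Camk2b were separated and Camk2a was not. The separated gene on the other side was Dlg1, named after its values were seen, with 88.5 to 107 CPM in the line against 85.7 to 86.8 CPM in WT.

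Immediate early genes, which neurons transcribe on activity, had 16 of 21 means below WT and a median of -0.31, which was -0.14 without WT vehicle replicate 3. Of these genes 3 were separated, all lower, against 3.1% of all genes. Egr4 was at 42.6, 41.9 and 44.9 CPM in WT, at 34.5, 34.1 and 36.1 CPM in the vehicle arm and at 26.2, 23.6 and 29.2 CPM in the LP-10d arm. The 3 groups lay in 3 steps. Bdnf, encoding brain-derived neurotrophic factor, was at 35.8, 31.3 and 35.8 CPM in WT and at 18.4 to 29.0 CPM in the line. Fosb was at 20.7, 15.9 and 17.7 CPM in WT and at 7.79 to 15.6 CPM in the line. Nr4a3 was called by DESeq2 (adjusted p = 0.0116) but overlapped WT, at 55.1 to 82.0 CPM against 81.7 to 136 CPM.

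Markers of hippocampal neurons had all 10 tested means below WT, a median of -0.27 and 2 separated genes, both lower, against 3.1% of all genes. Zbtb20, a transcription factor of hippocampal pyramidal and granule neurons, was at 203, 210.2 and 259 CPM in WT and at 134 to 195 CPM in the line.

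Of the dentate gyrus markers 10 of 12 had a lower mean, the median was -0.40 (-0.24 without WT vehicle replicate 3), and their score was below WT in all 6 line libraries, at most 0.0391 against at least 0.0809. Dock10 was at 89.9, 96.1 and 118 CPM in WT and at 70.2 to 84.95 CPM in the line (-0.39 ± 0.09 SE, DESeq2 adjusted p = 0.0167). Tdo2, encoding tryptophan dioxygenase, was at 4.57, 4.77 and 4.62 CPM in WT and at 1.08 to 3.68 CPM in the line. Stxbp6 overlapped WT. CA2 and CA3 markers had 9 of 12 means below WT and a median of -0.31 (-0.12 without WT vehicle replicate 1), and the separated gene was Nptx1, encoding neuronal pentraxin 1, at 1104, 787 and 1029 CPM in WT and 608 to 787 CPM in the line (-0.46 ± 0.11 SE, DESeq2 adjusted p = 0.0116). CA1 markers were split 4 to 4, and Man1a, a mannosidase gene, was separated, at 36.7 to 53.3 CPM against 56.2 to 61.2 CPM in WT.

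Cortical layer markers stood on the opposite side, with 8 of 12 higher, a median of 0.15 and 4 separated, all higher, against 3.83% of all genes. The median was 0.09 without 3xTg vehicle replicate 2 and 0.26 without WT vehicle replicate 3. Ntsr1, a neurotensin receptor gene of deep-layer cortical neurons, was at 6.74, 7.23 and 6.51 CPM in WT and ran from 9.72 through 12.6 to 20.3 CPM in the line (0.95 ± 0.21 SE, DESeq2 adjusted p = 0.00304). Lamp5 was at 33.1, 32.2 and 29.3 CPM in WT and at 38.1 to 66.5 CPM in the line, and Cux2, an upper-layer transcription factor, at 30.4, 57.3 and 53.6 against 61.1 to 127 CPM. Rasgrf2 was separated by a smaller step, 0.22 ± 0.07 (SE). How much of this list and of the hippocampal lists came from the tissue taken and how much from level per cell was not tested. The summed cortical markers were 594.6 to 780.9 CPM in WT and 635.6 to 830.2 CPM in the line, and the groups overlapped.

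Neuropeptide genes were higher in 16 of 20 with a median of 0.25, which was 0.09 without 3xTg vehicle replicate 2. Adcyap1, encoding the peptide PACAP, was at 2.34, 2.57 and 3.06 CPM in WT and ran from 4.21 through 6.09 to 8.17 CPM in the line (1.19 ± 0.22 SE; edgeR adjusted p = 0.117; DESeq2 adjusted p = 0.000411). Vip, the interneuron peptide of the same family, was at 9.43, 8.18 and 7.62 CPM in WT and at 10.1 to 20.4 CPM in the line (0.79 ± 0.20 SE, DESeq2 adjusted p = 0.0143). Crh overlapped WT. Among GABAergic interneuron genes, 14 of 21 were higher and 7 lower. The median was 0.06, and -0.02 without 3xTg vehicle replicate 2. Of these genes 2 were separated, Vip and Reln, both higher, against 3.83% of all genes. Reln, encoding the extracellular protein reelin, was at 55.5, 59.4 and 61.4 CPM in WT and at 67.5 to 95.2 CPM in the line (0.47 ± 0.11 SE, DESeq2 adjusted p = 0.0106). The interneuron score overlapped, at -0.121 to 0.00263 in WT and -0.0735 to 0.233 in the line. The score of the neuropeptide list was highest in 3xTg vehicle replicate 2, at 0.502. Its 3 LP-10d values, -0.0993 to -0.0507, met those of WT.

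The lists of choroid plexus markers, of striatal and thalamic markers and of mitochondrially encoded genes had large medians and no separated gene. Choroid plexus markers were lower in all 14, at a median of -1.37 (-0.71 without WT vehicle replicate 2), with summed levels of 252.4 to 6393 CPM in WT, 216.1 to 1574 CPM with vehicle and 218.2 to 4033 CPM with LP-10d. Striatal and thalamic markers had a median of 0.65 with all libraries and -0.40 without 3xTg vehicle replicate 2. The 12 tested mitochondrially encoded genes had a median of -0.45 that became -0.02 when WT vehicle replicate 3 was left out and -0.69 when replicate 2 was.

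**Figure D4:**
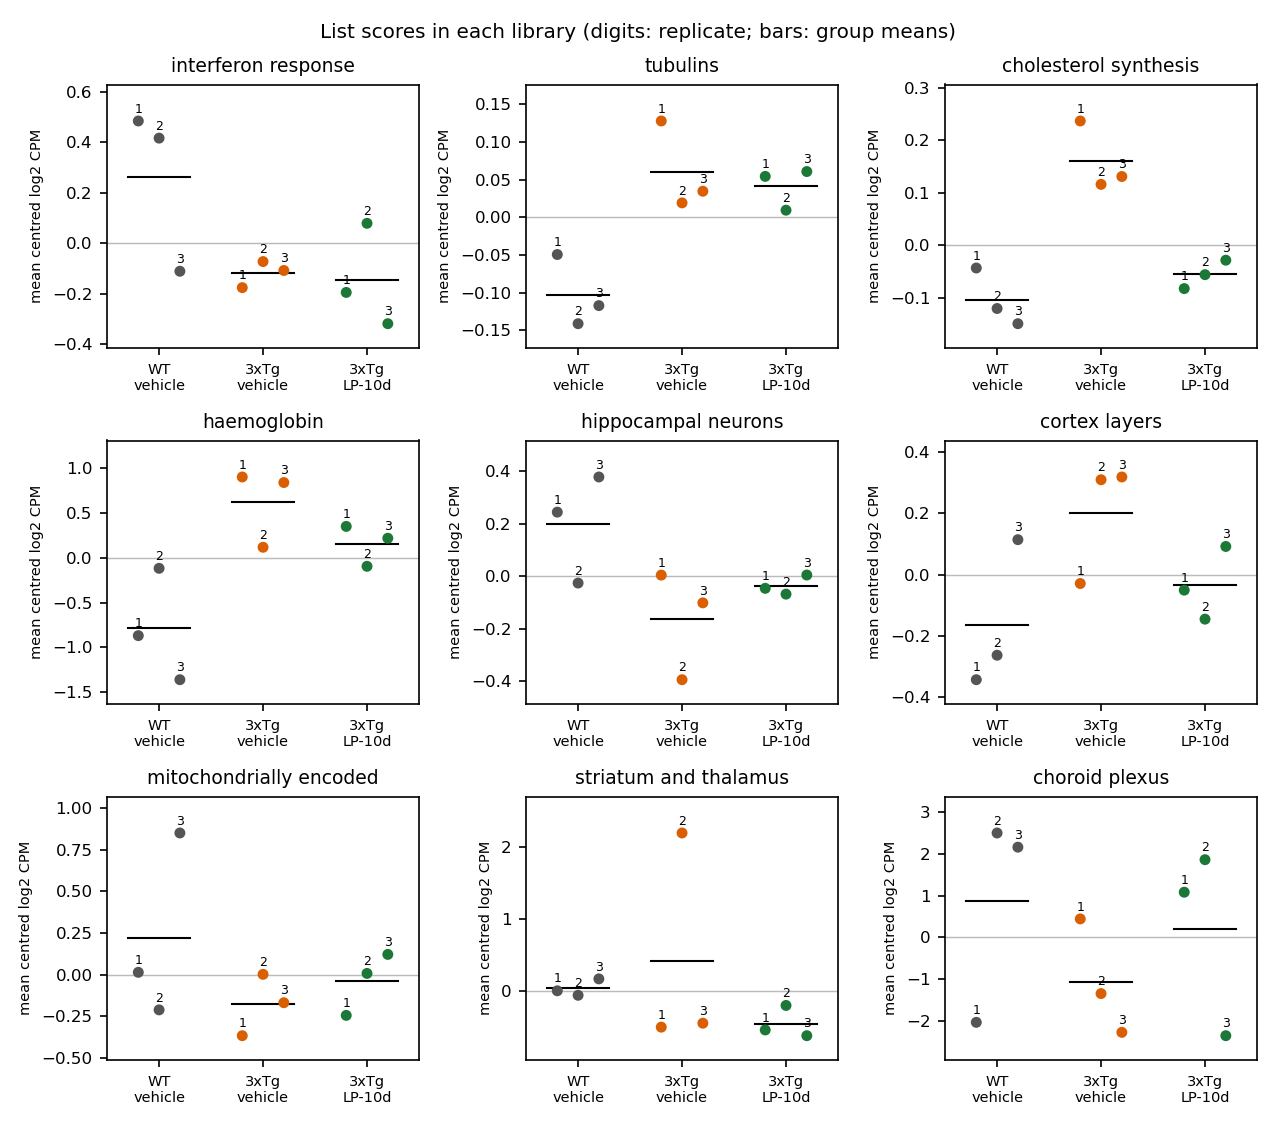
Score of 9 gene lists in each library (vertical axis, mean of centred log2 CPM), by group, with replicate numbers and bars at group means. Tubulins and haemoglobin have all 6 line libraries above WT, haemoglobin by a narrow margin (-0.0936 against -0.116). The choroid plexus score is scattered in every group, and the striatal score is set apart in 3xTg vehicle replicate 2.

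Haemoglobin genes, known from red blood cells and also found in neurons at low level, were higher in 5 of 6 tested, with a median of 0.92 (1.43 without WT vehicle replicate 2). Hba-a1 was at 18.6, 29.5 and 11.1 CPM in WT, at 99.9, 64.4 and 83.4 CPM in the vehicle arm and at 64.3, 35.8 and 60.4 CPM in the LP-10d arm. It was higher in all 6 line libraries, with LP-10d replicate 2 the nearest to WT (1.78 ± 0.34 SE; edgeR adjusted p = 0.117; DESeq2 adjusted p = 0.000996). Hbq1b, a theta-globin gene 3.45 kb from Hba-a1, had 2, 5 and 5 counts in WT and 17 to 32 in the line. It had the smallest p of the edgeR fit, 9.26e-06, with an adjusted p of 0.109, and limma-trend on the deposited FPKM values called it alone (adjusted p = 0.0220 on log2(FPKM + 0.1)). Hbb-bs overlapped WT, at 17.6 to 31.3 CPM against 27.7 to 60.2 CPM. Beside these genes, vessel and meningeal markers had 5 of 17 higher, and 1 was separated, Acta2, the actin of smooth muscle, which was lower at 11 to 15.4 CPM against 15.7 to 19.3 CPM in WT.

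Cholesterol synthesis genes were higher in 20 of 24, with a median of 0.18. The median was 0.24 with vehicle and 0.05 with LP-10d. The score was 0.116 to 0.237 with vehicle, -0.083 to -0.0288 with LP-10d and -0.15 to -0.0437 in WT, so that the vehicle libraries lay above WT and the LP-10d libraries overlapped it. The difference between the arms was not tested for the list. The genes separated over all 6 libraries were Mvk, mevalonate kinase, and Pmvk. Mvk was at 22.3, 21.3 and 19.8 CPM in WT and at 22.4 to 26.4 CPM in the line, a gap of little width. Fdft1, squalene synthase, was at 107, 93.9 and 109 CPM with vehicle, at 88.9, 80.0 and 97.3 CPM with LP-10d and at 72.0 to 84.4 CPM in WT. Neither edgeR nor DESeq2 called a gene of this list.

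Plexins and semaphorins, receptors and ligands of axon guidance, were split 14 to 14. Of these 28 genes 2 were separated, where 6.93% of all genes were in either direction. Plxnd1, the receptor of semaphorin 3E, was at 49.4, 64.6 and 57.1 CPM in WT, at 123, 141 and 135 CPM with vehicle and at 80.7, 79.1 and 97.6 CPM with LP-10d. Both arms were above WT, and the 3 groups did not overlap. The log2 fold change of the line was 0.94 ± 0.20 (SE; edgeR adjusted p = 0.135; DESeq2 adjusted p = 0.000996), with 1.22 in the vehicle arm and 0.59 in the LP-10d arm. Plxna3 had equal arms, with 51.1 to 55.9 CPM in WT and 61.7 to 68.2 CPM in the line (0.30 ± 0.06 SE, DESeq2 adjusted p = 0.0021).

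The direct comparison of LP-10d with vehicle within the line showed how far the arms differed at genes of the line. edgeR called 0 of 17396 genes there (0%; smallest adjusted p 1), with 504 at an unadjusted p under 0.05 (2.9%), and DESeq2 called 1, Plxnd1 (adjusted p = 0.0204). Of the 1206 separated genes, 54 (4.48%) had an unadjusted p under 0.05 in this comparison. Plxnd1 was lower with LP-10d by a log2 difference of -0.63 ± 0.12 (SE), and Dtl, a substrate receptor of a ubiquitin ligase in S phase, by -1.17 ± 0.20 (SE). Dtl was at 1.08, 1.31 and 0.834 CPM in WT, at 3.16, 4.20 and 4.19 CPM with vehicle and at 1.69, 1.78 and 1.65 CPM with LP-10d. It was separated from WT in both arms, and the LP-10d libraries lay nearer to WT. Hnrnpa3, a splicing regulator, was at 73.8 to 80.2 CPM in WT, at 47.4 to 52.7 CPM with vehicle and at 59.99 to 71.6 CPM with LP-10d. Egr4 and Fosb were further from WT with LP-10d, by -0.40 ± 0.09 and -0.58 ± 0.16 (SE). The edgeR adjusted p of all 5 genes in this comparison was 1.00, and they were picked out for a small p or as members of a list.

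**Figure D5:**
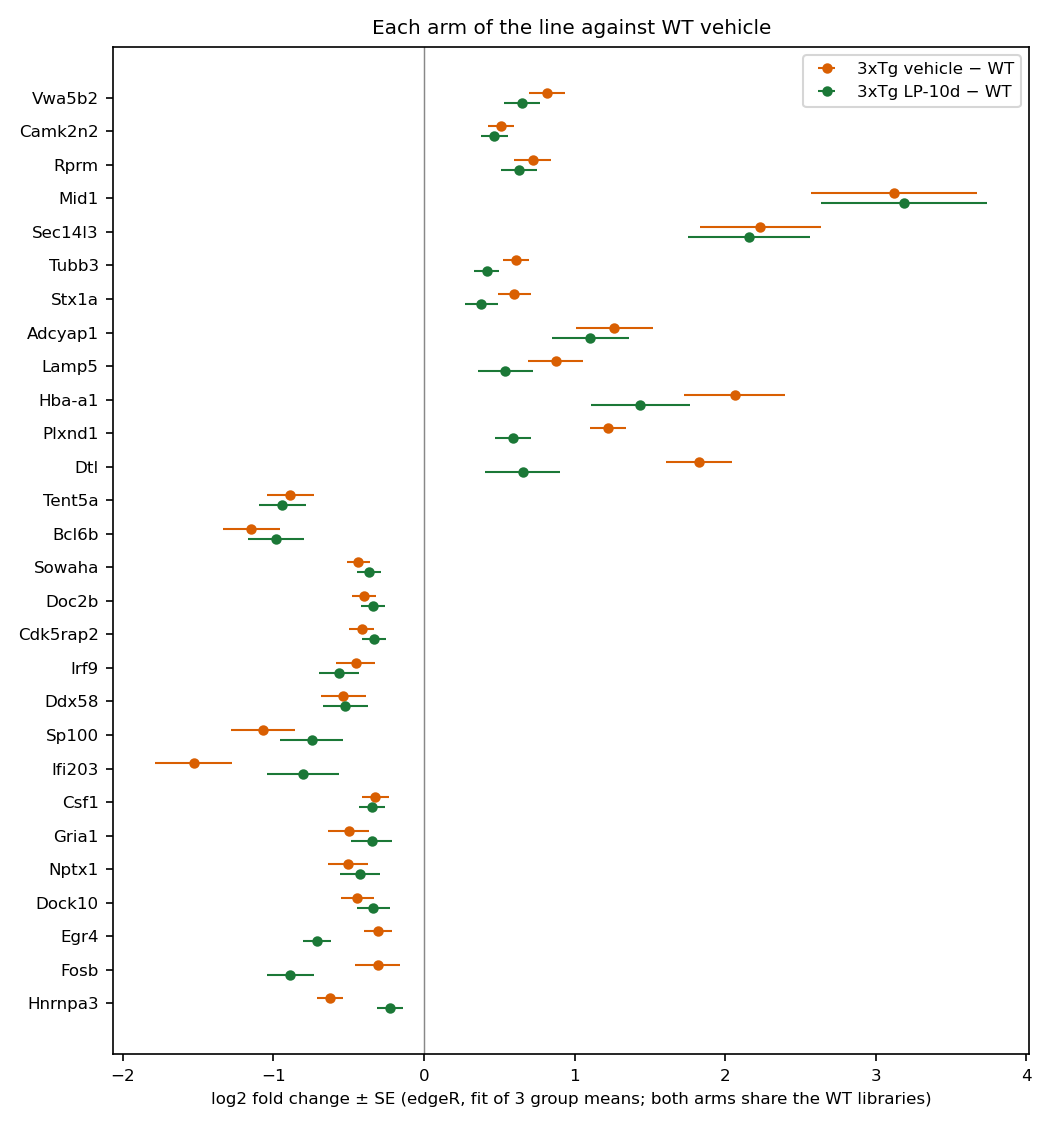
Log2 fold change with SE (horizontal axis) of 28 genes in the vehicle arm and the LP-10d arm, each against the same 3 WT libraries. Plxnd1, Dtl and Hnrnpa3 lie nearer to 0 with LP-10d and Egr4 and Fosb further from it; that both arms of a separated gene lie on one side of 0 follows from how such genes were chosen.

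Among the remaining lists, heat shock and chaperone genes had 14 of 19 means below WT and a median of -0.17 (-0.09 without WT vehicle replicate 3). In this list 2 genes were separated, both lower, against 3.1% of all genes. Hspa2, encoding a constitutive Hsp70 protein, was at 80.9 to 110.4 CPM in WT and at 56.2 to 79.2 CPM in the line (DESeq2 adjusted p = 0.0477). Hspa1b, an inducible Hsp70 gene with a near-identical copy, was at 18.1 to 28.0 against 12.8 to 17.1 CPM. Of cell cycle and DNA damage genes 17 of 23 were lower, and beside Dtl the separated gene was Cdkn1b, the inhibitor p27, at 34.7 to 42.3 CPM in WT and 27.8 to 31.8 CPM in the line (DESeq2 adjusted p = 0.0429). Splicing factors were lower in 20 of 32, with 1 separated higher and 3 lower, where 6.93% of all genes were separated in either direction. Hnrnpm was at 142, 160.0 and 153 CPM in WT and at 121 to 137 CPM in the line (DESeq2 adjusted p = 0.0292).

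Of the lists near to the disease that remain, those of tau and of amyloid processing had no separated gene. Tau and its kinases had 10 of 19 higher, a median of 0.00, 0 separated and 0 at an unadjusted p under 0.05. Amyloid processing genes had 8 of 20 higher and 0 separated. DESeq2 called 1, Apoe, which was lower as given above, where it called 0.886% of all genes lower. Bace2, a homologue of beta-secretase, was at 2.11, 1.62 and 2.67 CPM in WT and at 2.52 to 6.70 CPM in the line (0.99 ± 0.33 SE, DESeq2 adjusted p = 0.0791). DYRK, CLK, GSK3 and HIPK kinases were lower in 11 of 14 by a median of -0.06. Dyrk3 was at 16.3 to 17.4 CPM in WT and at 10.9 to 14.8 CPM in the line, and Hipk1 at 136 to 159 against 120.4 to 135 CPM. These 2 were separated, both lower, against 3.1% of all genes, and neither tool called them. GABA-A receptor subunits had 9 of 14 higher and 0 separated.

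Over the 37 lists, the score separated all 6 libraries of the line from WT in 6. It was higher for tubulins and haemoglobin. For haemoglobin the margin was narrow, -0.0936 in LP-10d replicate 2 against -0.116 in WT vehicle replicate 2. The summed haemoglobin levels of these libraries overlapped, at 73.81 and 75.62 CPM. It was lower for Pyhin genes, heat shock genes, dentate gyrus markers and oligodendrocyte precursor markers.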

How the data were processed

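The authors deposited raw read counts per gene and FPKM values with gene names and positions; mm10 was the build, according to the submitters' processing notes. How reads were aligned and counted, and whether strand was used, is not given in the sources used here. RNA was extracted with TRIzol and an RNeasy kit and libraries were made with an MGIEasy kit, per the labels' protocols. The count table held 55471 genes, and 0 of its per-sample columns were left unmapped.

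Counts were tested with edgeR 4.0.16 (quasi-likelihood, TMM normalization, filterByExpr, line against WT, 17396 genes, Benjamini-Hochberg adjustment over all of them, threshold 0.05) in R 4.3.3. A fit of 3 group means gave the arms. DESeq2 1.42.0, limma 3.58.1 on counts and on the authors' FPKM values (log2 of the value plus 0.1 or 1), other scalings and filters, and leaving out libraries were alternatives. Scripts were tested on simulated data. Deviations from the group mean correlated at 0.167, 0.11 and 0.375 between vehicle and LP-10d libraries of the same number. Between those of unlike number they ran from -0.301 to 0.181, and WT vehicle replicate 1 with LP-10d replicate 3 gave 0.383. Deviations within a group are tied to each other, so these values cannot show whether the numbers pair the arms. DESeq2 gave no adjusted p for 1716 genes.

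Named genes were the 5 of smallest p in each direction that were separated, with a mean of at least 1 CPM and a standard symbol, up to 4 per list by smallest p, up to 6 by position, and fixed disease and strain genes, some of which are not reported here; others are marked as named after their values were seen. The members and the lists were chosen with earlier results of these data known. The lists held 617 genes, 4 of them without a match in the files. Sequences came from GENCODE M21 transcripts and RefSeq.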

Additional observations from a re-analysis of the deposited data

Results flagged for a closer look

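Among the 6 libraries of the line, 11 of 108 genes and 4 of 37 list scores held 1 library whose gap to the nearest other exceeded Dixon's 95% critical value of 0.625 times the range. Chance gives about 1 such value in 20 groups.

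LP-10d replicate 2 was that library at Sv2a (586 CPM, others 623 to 644). It was so too at Wdfy1 (23.7 CPM, others 38.8 to 43.2), Gm8210 (0.0593 CPM, others 4.71 to 7.79), Gm21860 (0.83 CPM, others 0 to 0.0568) and Gm14267 (0 CPM, others 1.14 to 1.84), and LP-10d replicate 1 was low at AA414992 (0.508 CPM, others 1.15 to 1.47). These 5 genes were named because edgeR called them once that library was left out, so their place here restates the choice and is not to be set against the chance rate.

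3xTg vehicle replicate 2 was low at Doc2b (80.4 CPM, others 88.9 to 92.9) and Vash1 (31.3 CPM, others 34.6 to 36.6). It was also low in the scores of CA1 markers (-0.331, others 0.0107 to 0.144) and hippocampal neuron markers (-0.394, others -0.101 to 0.00517), and high in that of striatal and thalamic markers (2.2, others -0.622 to -0.201).

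3xTg vehicle replicate 1 was low at Cdk5rap2 (27.1 CPM, others 29.8 to 31.3) and in the score of splicing factors (-0.0968, others -0.00815 to 0.0157). 3xTg vehicle replicate 3 was high at Vwa5b2 (121 CPM, others 92.7 to 101) and low at App (1520 CPM, others 1650 to 1720).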

How the results depend on the processing

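The count of edgeR calls moved from 0 only where a library was left out: leaving out each library in turn gave 0 to 4 genes higher and 0 to 3 lower. The 4 and 3 came without LP-10d replicate 2. There was 1 lower call without 3xTg vehicle replicate 2, and AA414992 was the 1 higher call without LP-10d replicate 1. limma-trend on FPKM called 1 gene higher with either pseudocount, and DESeq2 called 202 higher and 139 lower, and 1 gene between LP-10d and vehicle. DESeq2 runs chosen after seeing the data gave 138 higher and 78 lower where WT vehicle 3 and 3xTg vehicle 2 were left out, with 119 of these 216 genes among the 341, and 243 and 169 without LP-10d replicate 2, with 293 of 412 among them. Separated genes ranged from 765 to 1669 higher and 644 to 1590 lower when 1 library was left out, since fewer libraries have to be cleared. Leaving out WT libraries moved them most: they numbered 1465 and 1583 (WT vehicle 1 left out), 1669 and 1590 (WT vehicle 2), 1192 and 1088 (WT vehicle 3), and 1440 and 1330 (WT vehicle 3 together with 3xTg vehicle 2). Log2 fold changes near 0 turned sign for Mapt (0.00692 with library size only, 0.00657 and 0.0065 on FPKM), Gabra2 (from -0.0976 to 0.185 with 1 library left out, -0.000981 without 3xTg vehicle 1) and Disc1 (from -0.0346 to 0.218 with 1 library left out, -0.0732 in edgeR and -0.0752 in DESeq2 where WT vehicle 3 and 3xTg vehicle 2 were left out). The cause was not tested.

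Between the line and WT, the same correlations were between -0.183 and 0.152 for same-numbered libraries. They are tied within a group in the same way, so they cannot show whether the numbers pair line and WT. A fit with the replicate number as a block called 0 genes higher and 0 lower there, with a smallest adjusted p of 0.123, and 0 between LP-10d and vehicle, and changed no other call. A test against a 1.5-fold change called 0 genes (226 at an unadjusted p under 0.05). Scaling by library size alone moved the median of all genes from 0.00 to 0.05. Depth limits the genes under about 1 CPM, which had few counts in each library.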
